A study of Mus musculus with 44 samples.

Results

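The genes described here build, fold and move secreted proteins in the endoplasmic reticulum and the early secretory pathway of mouse osteoblasts. They were chosen as a list of 46 gene symbols, and every probe set on the arrays annotated to a listed symbol was taken. The list was drawn up with earlier results of these data known. A share of members above that of all genes is therefore no independent support. Of the 46 genes, 45 had a probe set of their own, and those 45 genes held 97 of the 36701 probe sets and were 45 of the 15964 genes with a probe set of their own. Sec61g, the smallest subunit of the translocation channel, shared its probe set with other genes and was not analysed here. The list was read in 4 classes, namely 14 chaperones and folding enzymes, 6 stress sensors and transcription factors, 10 genes of the translocation machinery (11 with Sec61g) and 15 genes of vesicle coats, their cargo and retrieval receptors and membrane fusion. Each gene was represented by 1 probe set, with array A preferred to B and B to C, and then the brighter probe set, which put 42 genes on array A and 3 (Sdf2l1, Ern1 and Sec24d) on array B.

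RNA came from cultures of calvarial cells, the bone-forming cells of the skull roof, from newborn mice 7 days old, and was measured on 44 Affymetrix arrays, which come in 3 designs named A, B and C. The day 7 cultures carried the pOBCol3.6GFP transgene and were grown for 7 days in DMEM with fetal calf serum and no additions. The day 17 cultures carried the pOBCol2.3GFP transgene, were grown in the same way for 7 days, and then received Asc acid and bGP (ascorbic acid and beta-glycerophosphate, the usual additions for mineralisation) until day 17. Both transgenes place green fluorescent protein under a fragment of a type I collagen promoter, the longer of which is known to be active from earlier in the osteoblast lineage than the shorter. Cells were sorted into a GFP+ and a GFP- fraction, and an unsorted sample of each experiment was kept, which gives 6 groups of 3 RNA samples, 18 in all. The day 7 groups were experiments Exp99, Exp101 and Exp103 and the day 17 groups Exp100, Exp105 and Exp106, and values are given in that order throughout. Day, transgene and additions change together and cannot be told apart. The labels tell replicates apart by experiment name alone and do not say whether they were separate cultures, so p-values reflect only the spread among these samples, which may be technical.

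Secreted and membrane proteins are recognised by the signal recognition particle as they leave the ribosome, threaded through the Sec61 channel, and folded in the lumen of the endoplasmic reticulum by chaperones of the Hsp70 and Hsp90 families, their J-domain helpers, lectin chaperones and disulfide isomerases. COPII coats carry folded cargo towards the Golgi apparatus, and COPI coats with the KDEL receptors return escaped chaperones. When unfolded protein builds up, the sensors Ern1 (IRE1), Atf6 and PERK start the unfolded protein response through the transcription factors Xbp1, Atf6 and Atf4, and an osteoblast, which secretes large amounts of type I collagen, is known for a large secretory apparatus and for Creb3l1 (OASIS), a related factor held in the membrane of the endoplasmic reticulum.

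The promoters of the members carry known elements of this response, and the members that hold an exact match are shown because the matches divide by class. RefSeq promoters of build GRCm38.p6, from 250 bases before to 50 bases after each start, were in the table for 35 of the 46 listed genes. The ERSE (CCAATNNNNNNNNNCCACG, bound by Atf6 with NF-Y) was searched on both strands, and 6 of the 35 genes (17.1%) held it, against 37 of all 27025 genes (0.137%). All of the 6 were chaperones or folding enzymes. Of 72 other genes of the secretory pathway, not members, 1 (1.39%) held the ERSE. ERSE-II (ATTGGNCCACG) was in 1 member, Dnajb11, in 1 of those 72 other genes (1.39%) and in 0.0444% of all genes. The 6 ERSE promoters and that of Dnajb11 follow, 5′ to 3′ on the strand of the gene, with the match in capitals; a match whose capitals begin with CGTGG lies on the opposite strand, and Hsp90b1 held 2 matches.
Hspa5 (chr2:34772010-34772058, plus strand): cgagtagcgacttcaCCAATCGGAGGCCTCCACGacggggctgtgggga
Hsp90b1 (chr10:86705518-86705671, minus strand): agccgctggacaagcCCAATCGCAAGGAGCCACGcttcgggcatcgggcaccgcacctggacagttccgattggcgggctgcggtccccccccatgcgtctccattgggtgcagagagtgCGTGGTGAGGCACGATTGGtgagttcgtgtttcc
Canx (chr11:50325785-50325833, minus strand): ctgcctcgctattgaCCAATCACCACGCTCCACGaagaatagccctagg
Calr (chr8:84847060-84847108, minus strand): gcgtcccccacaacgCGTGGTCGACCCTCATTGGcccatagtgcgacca
Dnajc3 (chr14:118937812-118937860, plus strand): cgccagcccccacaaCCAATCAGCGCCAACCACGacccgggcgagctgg
Pdia6 (chr12:17266476-17266524, plus strand): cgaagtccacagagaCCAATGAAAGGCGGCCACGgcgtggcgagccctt
Dnajb11 (chr16:22857837-22857864, plus strand): atgtccccggcggcgATTGGCCCACGcc

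The core of the UPRE (TGACGTGG, bound by Xbp1), searched on both strands, was in 5 of the 35 genes (14.3%) and in 0.714% of all genes. Among the 72 other genes of the secretory pathway 4.17% held it. All of the 5 were coat or retrieval genes, and those of Copb2, Copb1, Kdelr3 and Sec24d are shown in the same way, CCACGTCA being the same core on the opposite strand.
Copb2 (chr9:98563709-98563746, plus strand): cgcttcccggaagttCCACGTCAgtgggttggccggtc
Copb1 (chr7:114254686-114254723, minus strand): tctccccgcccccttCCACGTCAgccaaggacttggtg
Kdelr3 (chr15:79516363-79516400, plus strand): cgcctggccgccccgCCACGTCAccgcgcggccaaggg
Sec24d (chr3:123267455-123267492, plus strand): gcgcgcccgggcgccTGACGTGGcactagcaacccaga
The cAMP response element TGACGTCA, bound by Creb and Atf factors, was in 1 member, Cope, against 2.03% of all genes. These elements are known from the response to unfolded protein, so the list and the matches are not independent, and a match is a description of the letters, not a bound site. The expression values of the genes that hold a match are given below under their class.

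All values below are intensities after quantile normalisation within an array type, and differences are on the scale log2(intensity + 32). A gene was called when limma's adjusted p (Benjamini-Hochberg over all probe sets of the fit) was below 0.05. Mean array intensity, with the 2% of probe sets at each end left out, ran from 1069 to 1766 on array A, 1367 to 1723 on B and 1259 to 1606 on C. The Exp106 samples stood apart. On array A the mean correlation of the sorted Exp106 samples with the other sorted samples was 0.839, against 0.943 among those others. Both figures mix pairs within a day and between the days. Results that rest on day 17 are therefore also given without Exp106. Of 12 osteoblast marker symbols, 9 were on array A. Their summed intensity was 84397 to 218989 in the day 7 samples, 263919 to 288305 in GFP- cells at day 17 and 345023 to 384889 in GFP+ cells at day 17. Most of each sum came from Col1a1 and Col1a2. At day 17 Col1a1 was at 132817 in every GFP- sample and at 132817, 132817 and 149225 in GFP+ cells. Dlx5 overlapped, at 1368, 1873 and 1047 in GFP- and 1481, 1142 and 1077 in GFP+ cells of that day. Ibsp (bone sialoprotein) was at 12716, 26606 and 11864 in GFP- cells and 57657, 75113 and 100227 in GFP+ cells at day 17, while at day 7 it was 37 to 1903. The defining markers of late osteoblasts and osteocytes, Dmp1 and Phex, were low at day 7, at 50 to 224 and 77 to 126. At day 17 Dmp1 was at 299, 835 and 172 in GFP- and 3745, 8719 and 626 in GFP+ cells. Phex was at 53, 133 and 280 in GFP- and 699, 1738 and 214 in GFP+ cells of that day. In Exp106 Phex was thus lower in GFP+ than in GFP- cells. Of the markers of other cells, 19 macrophage genes summed to 7378 to 8814 in GFP+ and 15970 to 42474 in GFP- cells at day 7, and to 80293 to 139191 in GFP- cells and 200046 to 258880 in unsorted cells at day 17. In GFP+ cells at day 17 they summed to 98263 in Exp106 and to 25198 and 25361 in the other experiments; Lyz2 was at 18284 in Exp106, against 5557 in Exp100 and 4894 in Exp105. The 8 fibroblast genes on array A summed to 79959 to 96375 over all day 7 samples, 151050 to 216070 in GFP- cells at day 17 and 93984 to 125709 in GFP+ cells at day 17. The 10 skeletal muscle genes summed to 2660 to 3151 in GFP+ and 6063 to 8871 in GFP- cells at day 7, and to 2936 to 5484 in GFP+ and 2238 to 5869 in GFP- cells at day 17. The 7 plasma cell genes summed to 1828 to 2467 in GFP+ and 1783 to 2350.2 in GFP- cells at day 7, and to 3495 to 6016 in GFP+ and 2478 to 4315 in GFP- cells at day 17. Among them Ighm, chosen after its values were seen, was at 1165, 769 and 477 in GFP- and 2273, 2032 and 2258 in GFP+ cells at day 17, without overlap. Tnfrsf17 ran the other way, also without overlap, at 387, 365 and 327 in GFP- and 114, 107 and 95 in GFP+ cells. The rest of the plasma cell genes overlapped between these fractions. In such bulk samples, fewer cells of a type and less RNA per cell cannot be told apart, and the part of these other cells in the results below was not tested.

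The first comparison set GFP+ against GFP- cells of the same day. At day 7 the differences of the secretory genes lay near 0: the median difference over the 41 members tested was 0.04 on the log2 scale, and the medians in Exp99, Exp101 and Exp103 were 0.04, 0.01 and 0.04. At day 17 the median was 0.57, 35 of the 41 members had a positive difference, and the medians in Exp100, Exp105 and Exp106 were 0.78, 0.60 and 0.22. Over all 10614 genes tested the day 17 median was -0.01 and 49.5% were positive. Translocation genes (median 0.65, positive in 9 of 9) and stress sensors and factors (0.70, positive in 5 of 5) had higher medians than coat genes (0.50, 13 of 15) and chaperones (0.37, 8 of 12); the classes were not tested against each other. At day 7, 0 of the 41 members were called, and the background over all genes was 0%; at an unadjusted p under 0.05 there were 0 members, against 1.16% of all genes. At day 17, 0 of the 41 were called as well, and the background was 1.66%. At an unadjusted p under 0.05 there were 13 members, against 12% of all genes. Calr, Hyou1, Atf6 and Ssr4 were too dim on their representative probe set to be tested in this fit of the sorted samples. Atf6 did enter the fit of all samples on array A.

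The day 17 result depended on how the spread between experiments entered. With the experiment as a replicate block, 11 of the 41 members (26.8%) were called, all higher in GFP+ cells, against a background of 4.07%. They were the J-domain chaperones Dnajb11 and Dnajb9, the factors Creb3l1 and Atf4, the translocation genes Srp19, Ssr2, Ssr3 and Sec61a1, and the coat and receptor genes Copb2, Lman1 and Kdelr3. Without Exp106 and without a block, the median was 0.70, 39 of 41 members were positive and 12 were called, all higher, against a background of 4.54%. Those 12 were Sec13, Atf4, Ssr2, Xbp1, Kdelr3, Copz2, Manf, Tram1, Lman1, Kdelr2, Sec61b and Ssr3. Leaving out only the Exp106 GFP+ sample gave 6 calls, against a background of 3.77%.

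**Figure D1:**
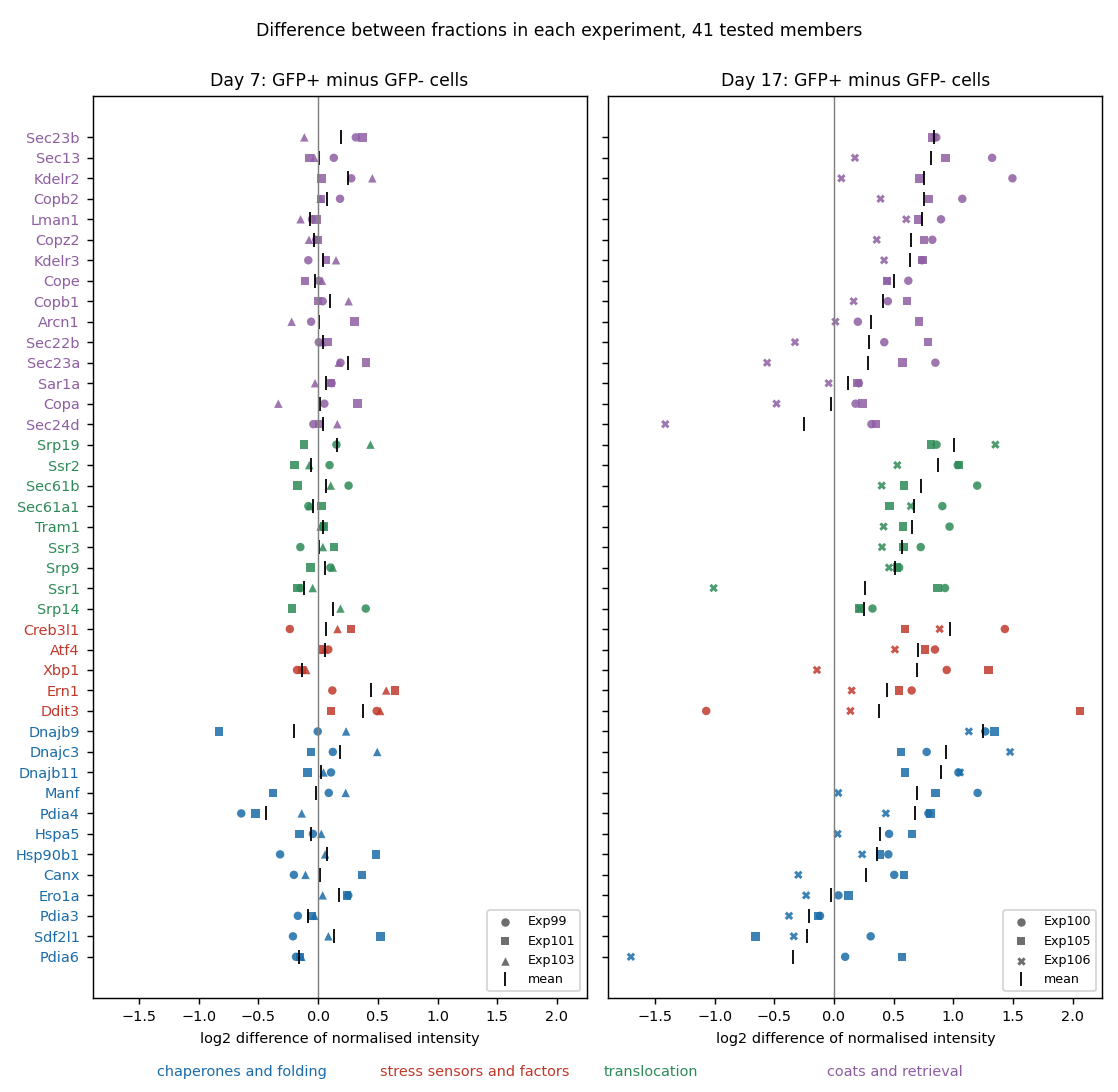
Each row is 1 of the 41 tested members and each point the log2 difference of normalised intensity, GFP+ minus GFP- cells, in 1 experiment (left, day 7; right, day 17); the black tick is the mean of 3 experiments and colour gives the class. The day 7 points lie around 0, while at day 17 39 of 41 members are above 0 in Exp100 and in Exp105 and 29 of 41 in Exp106.

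Whether the difference between fractions itself changed with the day was tested as an interaction. Its median over the members was 0.53, with 35 of 41 positive, and 0 members were called against a background of 0.301%. The median over all genes tested was -0.02, with 48.1% positive. At an unadjusted p under 0.05 there were 7 members, against 6.56% of all genes. Without Exp106, 2 members were called, Sec13 (1.13, adjusted p = 0.0386) and Ssr2 (1.10, adjusted p = 0.0405), against a background of 1.24%.

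The second comparison set day 17 against day 7 within each kind of sample. In GFP+ cells, 7 of the 41 members (17.1%) rose, against a background of 6.03%, and none fell. The 7 were the membrane-bound factor Creb3l1, the translocation genes Ssr2, Sec61b and Tram1, the COPI subunit Copb2, the retrieval receptor Kdelr2, and Manf. The median over the members was 0.68, with 35 of 41 positive, and over all genes tested it was -0.07, with 45.4% positive. All 15 coat genes and 8 of 9 translocation genes had a positive difference, against 9 of 12 chaperones and 3 of 5 stress sensors and factors. Among all genes called in this comparison, 231 were higher and 409 lower at day 17.

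In GFP- cells the median was 0.12, 27 of 41 members were positive, and 0 were called, against a background of 0.594%. All genes tested had a median of -0.05 there, with 46.1% positive. At an unadjusted p under 0.05 there were 5 members (12.2%), about the share of all genes (12.3%). In unsorted cells the median over the 39 members tested on array A was 0.05 and 1 member, Creb3l1, was called, against a background of 6.05%. Without Exp106, 25 members were called in GFP+ cells, 23 higher and 2 (Ddit3 and Atf4) lower, against a background of 13.5%, and all 7 named above were among them. Leaving out only the Exp106 GFP+ sample gave 20 calls, against a background of 7.72%. Leaving out any 1 of the other 5 GFP+ samples gave 3, against backgrounds of 2.56%, 3.38% and 3.15% (Exp99, Exp101 and Exp103) and 3.87% and 3.77% (Exp100 and Exp105). Without Exp106, 3 members were called in GFP- cells (Lman1 higher, Atf4 and Ddit3 lower), against 2.61%, and in unsorted cells 4 (Creb3l1 and Ssr2 higher, Atf4 and Dnajc3 lower), against 13.8%.

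**Figure D2:**
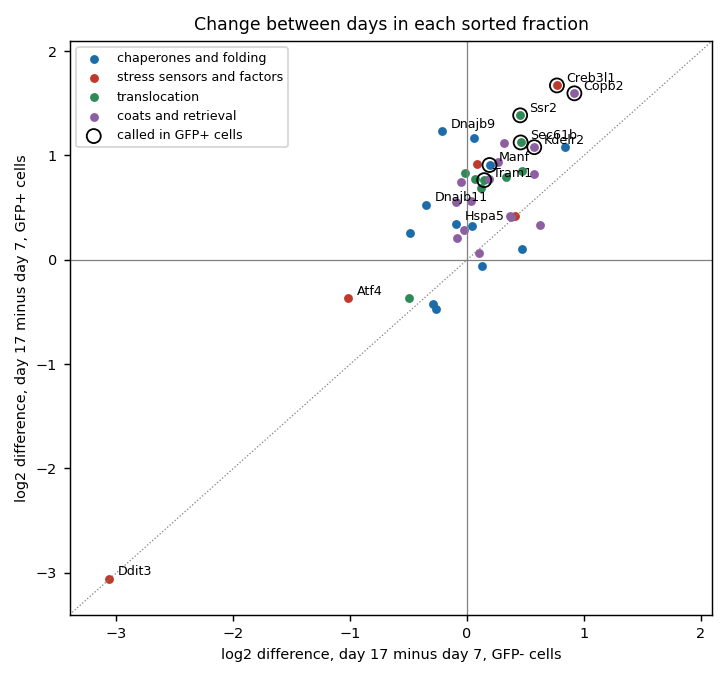
Log2 difference of normalised intensity between day 17 and day 7 in GFP+ cells (vertical) against that in GFP- cells (horizontal) for the 41 tested members; circles mark the 7 members called in GFP+ cells and the dotted line marks equal differences. Most members lie above the dotted line, and Ddit3 lies on it at -3.06 in both fractions.

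The third comparison set unsorted cells against the average of GFP+ and GFP- cells, with equal weight for each fraction on the log2 scale. The labels do not give the share of GFP+ cells, so this average need not match the mix in an unsorted culture. A difference is therefore no measure of sorting alone. At day 7, 0 of 39 members were called, the background was 0% and the median was 0.02; at an unadjusted p under 0.05 there were 0 members, against 0.851% of all genes. At day 17 the median was -0.41, 33 of 39 members were lower in unsorted cells, and 1 member, Srp19, was called, against a background of 1.68%. Over all 5639 genes tested the day 17 median was -0.02 and 47.7% were positive. With the experiment as a replicate block 16 members were called, 15 lower and Ero1a higher, against a background of 13%. Without Exp106, 14 were called, all lower, against a background of 9.75%. Srp19 was no longer called without the Exp105 GFP- sample or without any 1 of the 3 unsorted samples, settings in which the background was 0.391% and, in the order of experiments, 0.0713%, 0.161% and 0.945%. The Exp106 GFP+ sample left out gave 10 calls, against a background of 6.95%. The macrophage sums given above were also highest in the unsorted cells of day 17, and their part in this difference was not tested.

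**Figure D3:**
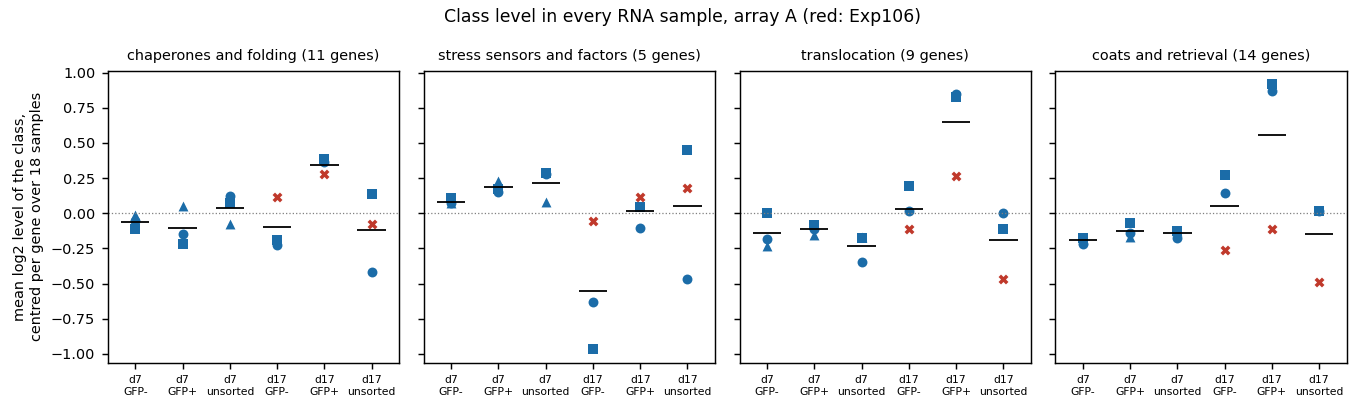
Mean log2 level of each class in each of the 18 RNA samples on array A, each gene centred on its own mean over the samples; bars are group means, point shapes experiments, and red points Exp106. In GFP+ cells at day 17 the translocation class is at 0.65 ± 0.33 (SD, n = 3) and the coat class at 0.56 ± 0.58 (SD, n = 3), with Exp106 the lowest of the 3 samples in both. The stress class holds Atf6 and not Ern1, whose probe sets are on array B.

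As a class, the chaperones and folding enzymes were at 0.34 ± 0.06 (SD, n = 3) in GFP+ cells at day 17, relative to each gene's mean over the 18 samples, and at -0.10 ± 0.19 in GFP- cells of that day. At day 7 the class was at -0.06 ± 0.05 in GFP- and -0.10 ± 0.14 in GFP+ cells. The stress class was spread more widely at day 17, at -0.55 ± 0.46 in GFP- and 0.02 ± 0.11 in GFP+ cells, and was at 0.08 ± 0.02 and 0.18 ± 0.04 at day 7. In these array A levels the stress class held Atf6 and not Ern1.

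Among the chaperones, the J-domain proteins that deliver clients to the Hsp70 chaperone of the endoplasmic reticulum had the smallest p-values between fractions at day 17. Dnajb11 (ERdj3) was at 1621, 1772 and 1378 in GFP- cells and 3373, 2697 and 2898 in GFP+ cells at day 17, and at 1720, 2139 and 1576 in unsorted cells. At day 7 it was at 2044, 1955 and 2080 in GFP- cells, 2205, 1837 and 2147 in GFP+ cells and 2798, 2249 and 2236 in unsorted cells. The day 17 fractions did not overlap, and every GFP- value lay below every day 7 value. The day 17 difference was 0.90 ± 0.22 (log2, SE; limma adjusted p = 0.0756, and 0.0476 with the replicate block).

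Dnajb9 (ERdj4) was at 1610, 2269 and 3982 in GFP- cells and 3920, 5816 and 8750 in GFP+ cells at day 17. The GFP+ value was the higher in each experiment, but the GFP- value of Exp106 exceeded the GFP+ value of Exp100, so the groups overlapped. Its other array A probe set, dimmer, was at 386, 499 and 719 in GFP- cells and 1823, 1206 and 168 in GFP+ cells, reversed in Exp106, and gave a difference of 0.49 (adjusted p = 0.911). On the brighter probe set the difference was 1.25 ± 0.37 (adjusted p = 0.169, and 0.0322 with the replicate block). At day 7 it was at 2347, 3901 and 2512 in GFP- cells and 2342, 2180 and 2961 in GFP+ cells, and unsorted cells were at 2319, 3206 and 2358 on that day. Unsorted cells of day 17 were at 1719, 5287 and 2520. Those values spanned the unsorted values of day 7.

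Dnajc3 (p58IPK), a J-domain protein that also restrains the kinase PERK, was at 2526, 2240 and 1141 in GFP- cells and 4349, 3324 and 3228 in GFP+ cells at day 17, with no overlap and a difference of 0.94 ± 0.30 (adjusted p = 0.212). Its other probe sets disagreed: a dimmer one on array A gave 0.91, while another on array A gave 0.28 and the tested one on array B -0.01, both with overlap and none called. The day 7 values of the first probe set were 2385, 3144 and 2429 in GFP- cells, 2600, 3019 and 3437 in GFP+ cells and 2737, 2687 and 3207 in unsorted cells, and the unsorted values of day 17, 1740, 2001 and 1335, lay below all of them. Dnajc3 holds an ERSE in its promoter, as shown above, while Dnajb11 holds an ERSE-II and Dnajb9 neither. Without Exp106 the day 17 differences were 0.83 (adjusted p = 0.0556) for Dnajb11, 1.31 (adjusted p = 0.0581) for Dnajb9 and 0.68 (adjusted p = 0.168) for Dnajc3.

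The most studied chaperones differed less. Hspa5 (BiP), the Hsp70 of the endoplasmic reticulum, was at 19725, 16413 and 44934 in GFP- cells, 27172, 25865 and 45899 in GFP+ cells and 16586, 26606 and 36095 in unsorted cells at day 17. Exp106 was the highest sample in each of the 3 groups, at 36095 to 45899, and the fractions overlapped. At day 7 it was at 26784, 22453 and 29467 in GFP- cells, 25989, 20159 and 30021 in GFP+ cells and 32927, 32409 and 27737 in unsorted cells. The day 17 difference between fractions was 0.38 ± 0.35 (adjusted p = 0.828), and in single experiments it was 0.46, 0.66 and 0.03.

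Hsp90b1 (GRP94), the Hsp90 of the endoplasmic reticulum, was at 18284, 16182 and 23910 in GFP- cells, 25083, 21132 and 28164 in GFP+ cells and 14070, 15053 and 19545 in unsorted cells at day 17. It was at 20688, 15824 and 19725 in GFP- cells, 16586, 22131 and 20548 in GFP+ cells and 19198, 19651 and 20901 in unsorted cells at day 7. The GFP+ sample was above the GFP- sample in all 3 day 17 experiments, the groups overlapped, and the difference was 0.36 ± 0.21 (adjusted p = 0.642).

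Manf, a small protein kept in the endoplasmic reticulum and secreted under stress, rose in GFP+ cells between the days by 0.91 ± 0.23 (adjusted p = 0.0469), and by 1.06 (adjusted p = 0.00608) without Exp106. Its values in GFP+ cells were 6270 to 8368 at day 7 and 11174 to 17295 at day 17, and those in GFP- cells at day 17 were 7450 to 10896, below every GFP+ value of that day. The disulfide isomerases had differences of either sign. Pdia4 was at 2039 to 3745 in GFP- and 2767 to 6589 in GFP+ cells at day 17 (difference 0.68 ± 0.35, adjusted p = 0.557), while Pdia3 had a difference of -0.21 ± 0.31 and Pdia6 one of -0.35 ± 0.46, neither called. The negative Pdia6 value rested on Exp106, in which GFP+ cells were at 2436 and GFP- cells at 7991; in Exp100 and Exp105 its differences were 0.09 and 0.57, and its other array A probe sets gave 0.01 and 0.70 over the 3 experiments.

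The remaining folding genes were not called between the fractions of either day. Canx, the membrane lectin chaperone, was at 1203 to 2169 over all day 7 samples, and its Exp106 samples, at 5774 to 8773, stood above the other day 17 samples, at 1502 to 2822. On its other array A probe set the Exp106 samples, at 824 to 1335, overlapped the rest of day 17, at 533 to 1016. Ero1a, the oxidase that recharges disulfide isomerases, differed by -0.02 between the day 17 fractions, and Sdf2l1, a partner of the J-domain chaperones, by -0.23. Calr, the soluble lectin chaperone, was at 15 to 301 over all 18 samples and Hyou1, which exchanges the nucleotide bound to Hspa5, at 10 to 23, so that neither had a usable level on array A; a brighter Hyou1 probe set on array B was tested and gave a day 17 difference of 0.45 (adjusted p = 0.911). Of the 5 tested chaperones with an ERSE, the day 17 differences were 0.94 (Dnajc3), 0.38 (Hspa5), 0.36 (Hsp90b1), 0.27 (Canx) and -0.35 (Pdia6).

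The stress class held the member with the smallest p-value between the days. Creb3l1 (OASIS), a transcription factor cut from the membrane like Atf6 and known to drive type I collagen expression in bone, was at 5399, 3320 and 5484 in GFP- cells, 4577, 4029 and 6143 in GFP+ cells and 3847, 7464 and 4953 in unsorted cells at day 7. The day 17 values were 6524, 9346 and 8056 in GFP- cells, 17650, 14112 and 14907 in GFP+ cells and 11864, 13971 and 13997 in unsorted cells. Every day 17 sample lay above every day 7 sample of its own kind, and GFP+ cells of day 17 lay above GFP- cells of that day without overlap. It rose by 1.67 ± 0.25 in GFP+ cells (adjusted p = 0.00303) and by 1.34 ± 0.26 in unsorted cells (adjusted p = 0.00705), and differed by 0.77 ± 0.25 in GFP- cells (adjusted p = 0.276). Without Exp106 it rose by 1.69 in GFP+ cells and 1.29 in unsorted cells, both called. Between the fractions of day 17 the difference was 0.97 ± 0.25 (adjusted p = 0.111, and 0.0427 with the replicate block), and 1.01 (adjusted p = 0.12) without Exp106.

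Xbp1, the factor made active when Ern1 splices its messenger RNA, was at 8439, 7225 and 7132 in GFP- cells and 16269, 17782 and 6459 in GFP+ cells at day 17. The GFP+ cells of Exp100 and Exp105 were the highest of all 18 samples, while those of Exp106 lay below the GFP- cells of the same experiment. At day 7 Xbp1 was at 7116, 8296 and 6211 in GFP- cells, 6294, 7552 and 5795 in GFP+ cells and 8309, 6484 and 5845 in unsorted cells, and the unsorted cells of day 17 were at 7563, 8733 and 6401. The difference between the day 17 fractions was 0.70 ± 0.33 (adjusted p = 0.495) with all experiments and 1.12 (adjusted p = 0.0143) without Exp106. These probe sets measure the amount of Xbp1 RNA and not its splicing.

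Atf4, whose translation rises when PERK or a related kinase is active, was at 17850, 18823 and 18940 in GFP- cells, 18940, 19260 and 19651 in GFP+ cells and 19545, 18147 and 19450 in unsorted cells at day 7. At day 17 it was at 7045, 6825 and 15883 in GFP- cells, 12686, 11607 and 22643 in GFP+ cells and 6670, 16321 and 15764 in unsorted cells. All GFP- and all unsorted samples of day 17 lay below their day 7 counterparts, and GFP+ cells exceeded GFP- cells in each of the 3 experiments. Day 17 differed from day 7 by -1.02 ± 0.32 in GFP- cells (adjusted p = 0.255), and without Exp106 it fell by 1.42 on the log2 scale (adjusted p = 0.00109). The difference between the day 17 fractions was 0.71 ± 0.32 (adjusted p = 0.474, and 0.0212 with the replicate block).

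Ddit3 (CHOP), a target of Atf4 that promotes cell death under lasting stress, had the largest day differences of all members. It was at 4871, 8137 and 4577 in GFP- cells, 6857, 8765 and 6575 in GFP+ cells and 9427, 5561 and 5884 in unsorted cells at day 7. At day 17 it was at 636, 151 and 2549 in GFP- cells, 286, 731 and 2808 in GFP+ cells and 639, 3941 and 2965 in unsorted cells, below day 7 without overlap in each kind of sample, with Exp106 or, in unsorted cells, Exp105 the highest. The day difference was -3.06 ± 0.87 in GFP+ cells (adjusted p = 0.0687) and -3.06 ± 0.87 in GFP- cells (adjusted p = 0.196), which did not pass the threshold. Without Exp106 it fell by 3.94 on the log2 scale in GFP+ cells (adjusted p = 0.00257) and fell by 4.08 in GFP- cells (adjusted p = 0.00932). Of the sensors themselves, Ern1 was at 1608 to 3322 and 2403 to 3859 in GFP- and GFP+ cells at day 7 and at 2363 to 4814 and 3728 to 5338 at day 17, higher in GFP+ cells in all 6 experiments but not called. Atf6 was dim on array A, at 246 to 674, and its array B probe set differed by -0.02 between the day 17 fractions (adjusted p = 0.995).

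**Figure D4:**
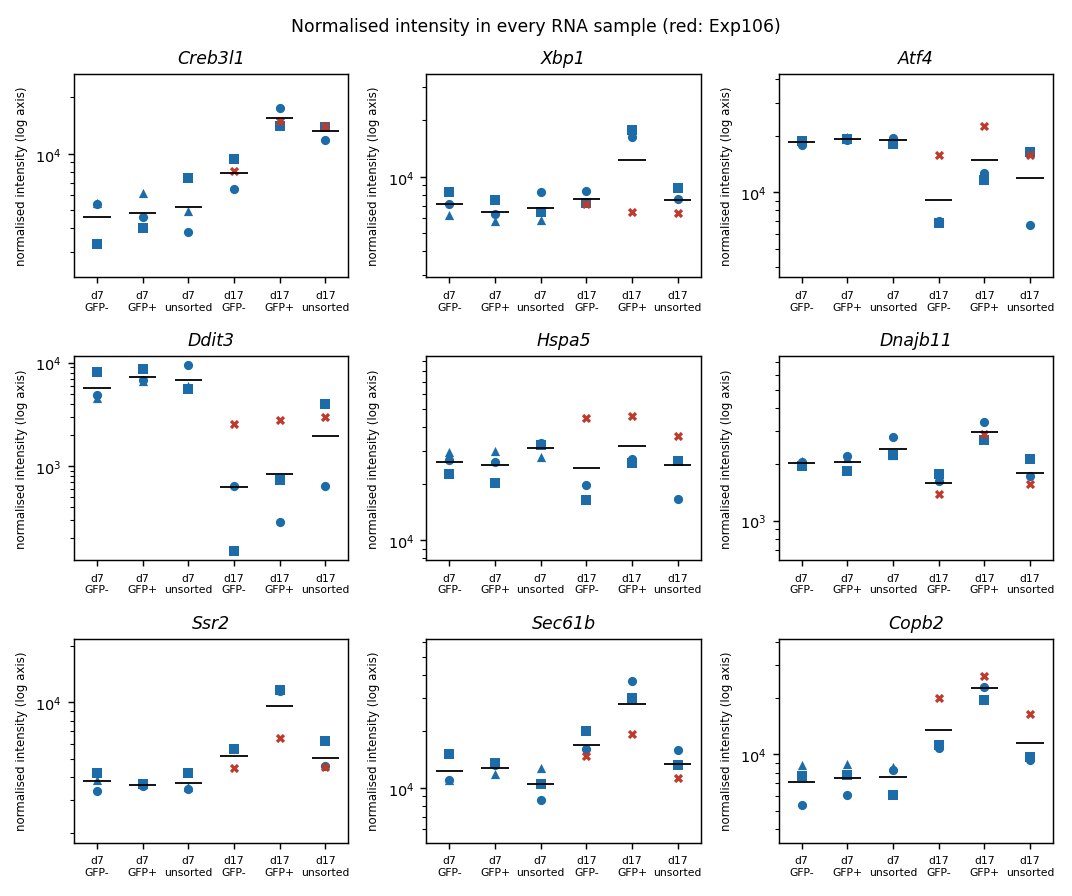
Normalised intensity (log axis) of 9 members in each of the 18 RNA samples; bars are geometric means of 3 samples, point shapes experiments, and red points Exp106. Creb3l1, Ssr2, Sec61b and Copb2 are highest in GFP+ cells at day 17, and Ddit3 is lower at day 17 than at day 7 in all 3 kinds of sample.

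All 9 tested translocation genes had a higher mean in GFP+ than in GFP- cells at day 17. Srp19, a protein of the signal recognition particle, was at 1982, 1993 and 2233 in GFP- cells, 3621, 3524 and 5750 in GFP+ cells and 1517, 1573 and 1417 in unsorted cells at day 17. The 3 groups did not overlap, and the unsorted cells were lower than either fraction. The difference between fractions was 1.01 ± 0.25 (adjusted p = 0.0927, and 0.0412 with the replicate block), and unsorted cells differed from the mean of the fractions by -0.96 ± 0.19 (adjusted p = 0.0217). Without Exp106 the latter was -0.78 (adjusted p = 0.0122). At day 7 Srp19 was at 2066, 2630 and 1691 in GFP- cells, 2302, 2421 and 2302 in GFP+ cells and 1453, 1819 and 1845 in unsorted cells.

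Ssr2, a subunit of the TRAP complex that sits beside the channel, was at 3369, 4202 and 3844 in GFP- cells, 3603, 3660 and 3650 in GFP+ cells and 3437, 4227 and 3540 in unsorted cells at day 7. The day 17 values were 5609, 5609 and 4483 in GFP- cells, 11542, 11626 and 6492 in GFP+ cells and 4596, 6195 and 4519 in unsorted cells. The GFP+ cells were above every other sample, with Exp106 closest to the GFP- cells. Ssr2 rose by 1.39 ± 0.24 in GFP+ cells between the days (adjusted p = 0.00723), and by 1.65 (adjusted p = 0.000243) without Exp106. The difference between the day 17 fractions was 0.87 ± 0.24 (adjusted p = 0.14, and 0.0337 with the replicate block).

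Sec61b, the beta subunit of the channel, was at 11051, 15223 and 10980 in GFP- cells and 13196, 13490 and 11816 in GFP+ cells at day 7. Its day 17 values were 16182, 20159 and 14735 in GFP- cells and 37207, 30279 and 19450 in GFP+ cells. The GFP+ cells of Exp106 lay below the GFP- cells of Exp105, so the day 17 fractions overlapped, while the GFP+ cells of the 2 days did not. Sec61b rose by 1.13 ± 0.25 in GFP+ cells (adjusted p = 0.0235), and by 1.42 (adjusted p = 0.00156) without Exp106. The unsorted cells were at 8580, 10505 and 12805 at day 7 and 15824, 13257 and 11289 at day 17.

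Sec61a1, the pore-forming subunit, was at 11542, 15644 and 8600 in GFP- cells and 21681, 21604 and 13457 in GFP+ cells at day 17, and at 12333, 9228 and 11898 in GFP- cells, 11655, 9416 and 11324 in GFP+ cells and 10773, 13049 and 12231 in unsorted cells at day 7. Each day 17 experiment had more in GFP+ cells, with overlap between the groups, and the difference was 0.67 ± 0.26 (adjusted p = 0.356, and 0.0349 with the replicate block). The unsorted cells of day 17 were at 16905, 13457 and 9959. A second Sec61a1 probe set on array A gave 0.85. Without Exp106 the difference between fractions was 0.70 (adjusted p = 0.103) for Sec61a1 and 0.85 (adjusted p = 0.0754) for Srp19.

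Tram1, a membrane protein that helps chains leave the channel sideways, was at 7140, 8235 and 7758 in GFP- cells, 7353, 8514 and 7871 in GFP+ cells and 6589, 7752 and 7769 in unsorted cells at day 7. At day 17 it was at 7794, 9039 and 8809 in GFP- cells, 15276, 13490 and 11759 in GFP+ cells and 8809, 7371 and 8013 in unsorted cells. The GFP+ cells of day 17 were above all other samples. Tram1 rose by 0.76 ± 0.18 in GFP+ cells (adjusted p = 0.0296), and the day 17 fractions differed by 0.65 ± 0.18 (adjusted p = 0.125). A second probe set gave 0.35 and 0.16 for the same differences, neither called. On that probe set GFP+ cells of day 17 were at 7964, 7732 and 1898, the last in Exp106. Without Exp106 Tram1 rose by 0.86 (adjusted p = 0.00478) in GFP+ cells.

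Of the other TRAP subunits, Ssr3 was at 18486 to 27960 in GFP- and 24442 to 41848 in GFP+ cells at day 17 (difference 0.57 ± 0.24). Its other array A probe sets gave 0.18 and -0.35. Both were higher in GFP+ cells in Exp100 and Exp105 and reversed in Exp106. The latter was at 8719, 14196 and 6549 in GFP- and 19955, 25311 and 741 in GFP+ cells. On its representative probe set, Ssr1 was at 11039 and 14631 in the GFP+ cells of Exp100 and Exp105. In Exp106 it was at 3071 in GFP+ cells, below the GFP- value of 6209. The other Ssr1 probe set on array A was also reversed in Exp106, at 1069 in GFP- and 556 in GFP+ cells. On each Ssr1 probe set of arrays B and C, GFP+ cells were the higher in Exp106. The array B values were 1147 in GFP- and 1635 in GFP+ cells. The brighter array C probe sets went from 2211 to 2459 and from 2303 to 2688. Ssr4 was at 10 to 139 on array A. Its array B probe set, also too dim to be tested, was at 191, 83 and 744 in GFP- cells and 815, 807 and 753 in GFP+ cells at day 17. The other signal recognition particle proteins, Srp9 and Srp14, which form a pair on its Alu domain, differed by 0.51 and 0.25 between the day 17 fractions, higher in GFP+ cells in 3 of 3 experiments each and not called.

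Among the COPI genes, Copb2 (beta-prime subunit) was at 5343, 7647 and 8786 in GFP- cells, 6073, 7769 and 8914 in GFP+ cells and 8210, 6073 and 8600 in unsorted cells at day 7. The day 17 values were 10856, 11204 and 20073 in GFP- cells, 22900, 19450 and 26316 in GFP+ cells and 9357, 9693 and 16533 in unsorted cells. On this probe set all day 17 samples lay above all day 7 samples of their kind, and Exp106 was the highest in each group. Its day 17 fractions overlapped, since GFP- cells of Exp106 exceeded GFP+ cells of Exp105. At day 17 the other probe set read 5210, 7225 and 3469 in GFP- cells and 8677, 11898 and 6711 in GFP+ cells. Unsorted cells read 3783, 4752 and 2930 there. On that probe set Exp106 was the lowest in each group, and GFP- and unsorted cells overlapped their day 7 values. Copb2 rose by 1.60 ± 0.28 in GFP+ cells (adjusted p = 0.00723), and its other array A probe set gave 1.11 (adjusted p = 0.061). The rise was called without Exp106 too (adjusted p = 0.0036). The day 17 fractions differed by 0.75 ± 0.28 (adjusted p = 0.321, and 0.044 with the replicate block).

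Copz2, a zeta subunit, was at 9103, 8588 and 5013 in GFP- cells, 16136, 14496 and 6435 in GFP+ cells and 7604, 6519 and 4253 in unsorted cells at day 17, and at 5806, 6529 and 5948 in GFP- cells, 5742, 6503 and 5640 in GFP+ cells and 6397, 6898 and 6329 in unsorted cells at day 7. The GFP+ cells of Exp100 and Exp105 were the highest samples, and Exp106 was the lowest of each day 17 group. The difference was 0.64 ± 0.33 (adjusted p = 0.559) with all experiments and 0.79 (adjusted p = 0.0204) without Exp106.

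Copa, the alpha subunit, was at 11360, 7841 and 14362 in GFP- cells, 11782, 9854 and 11393 in GFP+ cells and 9734, 12353 and 10032 in unsorted cells at day 7, and at 11039, 11598 and 12353 in GFP- cells, 12519, 13678 and 8840 in GFP+ cells and 12716, 12149 and 13172 in unsorted cells at day 17. The fractions of each day overlapped, and the differences were -0.02 ± 0.24 between the day 17 fractions (adjusted p = 0.994) and 0.06 ± 0.24 between the days in GFP+ cells (adjusted p = 0.91). The other COPI subunits Copb1 (0.41), Cope (0.50) and Arcn1 (0.31) had positive differences between the day 17 fractions that were not called.

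Kdelr2, a receptor that returns escaped chaperones to the endoplasmic reticulum, was at 3149, 3120 and 3223 in GFP- cells, 3824, 3182 and 4427 in GFP+ cells and 4739, 4221 and 3818 in unsorted cells at day 7. Its day 17 values were 3213, 4719 and 6970 in GFP- cells, 9115, 7769 and 7278 in GFP+ cells and 4184, 5138 and 4471 in unsorted cells. The GFP+ cells of day 17 lay above all other samples, Exp106 GFP- cells coming closest. Kdelr2 rose by 1.08 ± 0.27 in GFP+ cells (adjusted p = 0.0395), and the day 17 fractions differed by 0.76 ± 0.27 (adjusted p = 0.276). Without Exp106 the rise was 1.14 (adjusted p = 0.00784). Its relative Kdelr3 was at 27499 and 30021 in the GFP+ cells of Exp100 and Exp105 and at 10458 in Exp106, and differed by 0.63 ± 0.39 (adjusted p = 0.665, and 0.0383 with the replicate block). Lman1 (ERGIC-53), a lectin that carries glycoproteins out of the endoplasmic reticulum, was at 4450 to 5884 at day 7 and at 15129 and 16668 in the GFP+ cells of Exp100 and Exp105, against 5402 in Exp106. Its day 17 difference between fractions was 0.74, and its probe sets on arrays B and C gave 0.50 and -0.33, none called without the replicate block.

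In several COPII genes, too, Exp106 stood apart from the other day 17 experiments. Sec13, an outer coat subunit, was at 9209, 10578 and 5214 in GFP- cells and 23111, 20255 and 5894 in GFP+ cells at day 17, against 7732 to 9171 over the day 7 samples. The Exp106 samples were below every day 7 sample. The difference between fractions was 0.81 ± 0.44 (adjusted p = 0.584) with all experiments and 1.14 (adjusted p = 0.00549) without Exp106.

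Sec23a, an inner coat subunit whose loss is known to disturb skull ossification, was at 13257, 18486 and 7679 in GFP- cells and 23910, 27564 and 5198 in GFP+ cells at day 17. On this probe set Exp106 ran against the other experiments, and the difference was 0.29 ± 0.52 (adjusted p = 0.935). Another array A probe set gave -0.55. One on array C was higher in GFP+ cells in each day 17 experiment, at 6999, 6228 and 3280 against 3447, 4110 and 2117. That probe set was called higher at day 17 than at day 7 in GFP+ cells, by 1.57. Sec24d, the inner coat subunit that selects cargo, was at 13968 and 15084 in the GFP+ cells of Exp100 and Exp105 and at 4987 in Exp106, and differed by -0.25. Sec23b (0.84), Sec22b, a membrane fusion protein (0.29), and Sar1a, the GTPase that starts the coat (0.12), were not called; a Sec22b probe set on array B was called higher at day 17 in GFP+ cells, by 1.46. Of the coat and receptor genes whose UPRE core is shown above, the day 17 differences were 0.75 (Copb2), 0.63 (Kdelr3), 0.41 (Copb1) and -0.25 (Sec24d).

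A wider list of 80 other genes of the secretory pathway, of which 72 were tested, gave the surroundings. Between the day 17 fractions its median was 0.33, 56 of 72 were positive, and 1 (1.39%) was called, near the background of 1.66%; it was Edem1, which sends misfolded glycoproteins to degradation (difference 1.51 ± 0.31, adjusted p = 0.0389). With the replicate block 4 (5.56%) were called, against 4.07% of all genes, all higher, namely Edem1, Serp1, Arf4 and Gorasp2. Between the days in GFP+ cells 3 of 72 (4.17%) were called, all higher, below the 6.03% of all genes. They were Fkbp11, a prolyl isomerase of secretory cells (2.22 ± 0.39, adjusted p = 0.00726), Gorasp2, a Golgi stacking protein (0.93 ± 0.22, adjusted p = 0.0318), and Tmed3, a cargo receptor of early vesicles (0.89 ± 0.22, adjusted p = 0.0377). The median over the wider list in that comparison was 0.27, against 0.68 over the members.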

How the data were processed

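Intensities were used as the authors deposited them, 1 value per probe set and array; the method of summarising and scaling the probes, and any genome build, are not stated in the sources used here. The members and gene lists were chosen with earlier results of these data known. A pseudocount of 32 was added, log2 values were quantile normalised within each array type (A over 18 arrays, B and C over the 12 sorted ones), and probe sets above the array median on at least 3 arrays entered a linear model (limma 3.58.1, R 4.3.3) with a variance trend and Benjamini-Hochberg adjustment over all probe sets. Arrays A, B and C of the sorted samples were fitted together, and unsorted samples on array A. Gene names came from GEO's platform annotation: 29131 probe sets had 1 gene, 724 several and 6846 none. The fit was run on simulated data with independent noise in each sample and no shared effect of an experiment. That run therefore says nothing about the pairing of fractions by experiment or about Exp106. Unsorted Exp106 RNA on arrays B and C, 2 arrays, entered no fit.

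Every member is named. Values in every sample are given for the 3 smallest p-values of each class between the day 17 fractions, up to 6 called members of each other comparison, and Hspa5, Hsp90b1, Xbp1, Atf4, Ddit3, Creb3l1, Sec61a1 and Copa. The experiment name is shared by the fractions and so pairs them; on array A the correlation of paired deviations was 0.29 to 0.67 in the 6 experiments. Alternatives were the experiment as a fixed or random replicate block, other pseudocounts, filters and normalisations, and leaving out each sample or Exp106. The number of arrays limits the precision. Coordinates are those of RefSeq build GRCm38.p6. The promoter window of 1 further member is not reported here.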

Additional observations from a re-analysis of the deposited data

Results flagged for a closer look

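In 3 members the difference between GFP+ and GFP- cells had one sign in all 3 day 7 experiments and the other sign in all 3 day 17 experiments. How often this sign pattern occurs over all genes was not counted, so the number of members is no result about the list. For the disulfide isomerase Pdia4 the differences were -0.64, -0.52 and -0.14 at day 7 and 0.79, 0.81 and 0.43 at day 17 (each in the order of experiments used above), and the effect at day 17 minus that at day 7 was 1.11 ± 0.49 (log2, SE; limma adjusted p = 0.805, and 0.152 with the replicate block). For the COPI subunit Copz2 the day 7 differences were close to 0, at -0.02, -0.01 and -0.08, and those of day 17 were 0.82, 0.75 and 0.36; its interaction was 0.68 ± 0.47 (adjusted p = 1). For the cargo receptor Lman1 they were -0.05, -0.01 and -0.15 at day 7 and 0.90, 0.71 and 0.61 at day 17, with an interaction of 0.81 ± 0.61 (adjusted p = 1). None of the 3 interactions was called.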

How the results depend on the processing

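The directions of the member medians were the same under all alternatives run, except at day 7, where the median between fractions was 0.04 and became -0.10 with values as deposited, and for the unsorted medians near 0 when 1 sample was left out. Between the day 17 fractions, the count of called members (the share of all genes called in brackets) was 0 (1.66%), and 7 with a random replicate block (5.78%), 11 with a fixed replicate block (4.07%), 12 without Exp106 (4.54%), 15 with the fixed replicate block and Exp106 left out (6.06%), and 1, Dnajb11, with the variance trend within each array type (1.96%); leaving out 1 sample gave 0 to 6, the 6 without the Exp106 GFP+ sample (3.77%). The interaction gave 0 (0.301%), with 2 without Exp106 (1.24%) and 1 with the block as well (1.36%). Day 17 against day 7 in GFP+ cells gave 7 (6.03%), with 2 when only the groups compared were fitted (2.78%), 3 with no variance trend (5.38%), 25 without Exp106 (13.5%) and 3 to 20 when 1 sample was left out: 20 without the Exp106 GFP+ sample (7.72%) and 3 without any 1 of the other 5 (2.56% to 3.87%). Creb3l1 and Copb2 were called in all 16 alternatives of that comparison, Ssr2 in 15, Sec61b and Tram1 in 9, and Kdelr2 and Manf in 7. In GFP- cells the count was 0 (0.594%), and 3 without Exp106 (2.61%), and in unsorted cells 1 (6.05%), and 4 without Exp106 (13.8%). For unsorted against sorted cells at day 7 the median was 0.02, and 0.15 as deposited. At day 17 the count was 1 (1.68%), with 0 as deposited (1.61%; median -0.25), 0 with only the groups compared (0%), 14 with the random replicate block (11.6%), 14 without Exp106 (9.75%), 16 with the fixed replicate block (13%), 17 with the block and Exp106 left out (13.8%), and 0 to 10 when 1 sample was left out. It was 0 without the Exp105 GFP- sample (0.391%) or without any 1 of the 3 unsorted samples (0.0713% to 0.945%), 2 without the Exp106 GFP- sample (1.76%) and 10 without the Exp106 GFP+ sample (6.95%). With 1 sample left out the medians ran from 0.0090 to 0.0503 (fractions, day 7), -0.19 to 0.13 (unsorted, day 17 against day 7), -0.0019 to 0.034 (unsorted against sorted, day 7) and -0.55 to -0.27 (the same at day 17). The causes of these changes were not tested. The alternative with the variance trend within each array type was chosen after seeing the data. The filter on dim probe sets left Calr, Hyou1 and Ssr4 out of the member counts, except with no filter. It left Atf6 out of the counts for the sorted fractions, while the main fit of all samples on array A tested it.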
